A study of Homo sapiens with 4 samples.

Results

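The regions described here are 513 upstream stretches, each the extra 5′ part of the longest annotated transcript span of a protein-coding gene. A gene qualified when its span overlapped no other annotated gene. Its longest transcript span was paired with the longest other span of the same gene that ended within 500 bases of the same 3′ end and began at least 10000 bases downstream. The stretch is the part of the long span that lies before the start of the short span. Pairs were kept when the long span held at least 50 counts in each library, so a gene silent in a state could not enter. The members were thus selected on their long-span counts in all 4 libraries, and the difference between the states was not used. Of 5757 genes with such a pair of spans, 1036 were isolated and protein-coding, and 513 of these met the count minimum. They lay on 23 chromosomes.

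The counts came from Nanopore cDNA libraries of the human embryonic stem cell line H1, of wild-type genotype, in a naïve and a primed state. Naïve cells were kept in FINE medium to 50% confluency and primed cells in mTeSR to 60 to 70%, with 2 replicates per state. All libraries came from the 1 cell line, and nothing in the labels says that replicates were separate cultures, so p-values measure the spread between these libraries only. The methods of the study also describe low oxygen and a matrix with reduced growth factors for naïve cells, but not for primed cells. State, medium, confluency, oxygen and matrix cannot be told apart.

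Many genes carry more than 1 promoter. A distal promoter gives a transcript with extra first exons, and a promoter further downstream gives a shorter transcript, often with the same final exons. The choice can alter the N-terminus of the protein, the untranslated leader or the level of the RNA. Naïve cells resemble the pre-implantation epiblast and have little DNA methylation, whereas primed cells resemble the later epiblast, and promoters rich in CpG are known to respond differently to methylation from those poor in it.

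The value of a stretch was the count of the long span minus the count of the short span. Spans were counted with their introns, without regard to strand, and an alignment was counted for every span it touched. The difference therefore counts alignments that touch the stretch and no base of the short span. A spliced read that began at the distal start and ran on into the short span was counted on both and is not in the difference, so the values do not measure the use of the distal promoter directly. The upstream share is the stretch count as a percentage of the long-span count. When the short span ended before the long one, as it did in 291 members, the difference also held alignments that lay only in the last bases, at most 500. In 96 members the short span ended after the long one, so alignments beyond the end of the long span could be subtracted. In 4 members the difference was negative in a library, by 45 counts at most, and it was set to 0.

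The annotation of the short spans bore on how far these regions can be called promoter stretches. The short span was a protein-coding transcript in 192 members, a retained-intron transcript in 170, a transcript of a coding gene without a defined reading frame in 117 and a substrate of nonsense-mediated decay in 34. CpG content was taken over 300 bases at each start, of which 250 lay before it, and a start was called CpG-rich above a GC fraction of 0.5 and an observed over expected CpG ratio of 0.6. By this measure 81.3% of the upstream starts were CpG-rich and 8.58% of the downstream starts, against 55.0% of 20046 protein-coding gene starts. These gene starts, also used for the letters below, were not filtered on counts as the members were, so the sets are not matched for expression. Both starts were CpG-rich in 28 members, the upstream start alone in 389, the downstream start alone in 16 and neither in 80. The downstream start coincided with the 5′ edge of an exon of the long transcript in 26 members, lay inside such an exon in 150 and lay in an intron of it in 337. At all 26 exon edges the bases before the start were AG, the letters that end an intron. The downstream start is thus a CpG-rich start of its own in few members, and the regions are called upstream stretches here. Letters were searched on both strands of the same 300 bases. TATAAA was in 22.0% of the downstream windows, 4.09% of the upstream windows and 10.8% of all gene starts. GGGCGG was in 13.1%, 71.7% and 52.4% in the same order, and CCAAT in 33.7%, 36.6% and 36.0%. ATGCAAAT, the octamer that POU factors such as OCT4 recognise, was in 1.75%, 1.17% and 1.70%. These are matches of letters and not sites.

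The bases before both starts of 3 genes show the kinds of start that were paired. Each line gives 150 bases of GRCh38 that end just before the start, 5′ to 3′ on the strand of the gene, with CG pairs in capitals and a final AG in capitals where the start follows one. OLFM2 is shown because both starts are CpG-rich, and MAPK8 and MYOF because the downstream start follows a splice acceptor.
OLFM2 upstream start (chr19:9936516-9936665, minus strand): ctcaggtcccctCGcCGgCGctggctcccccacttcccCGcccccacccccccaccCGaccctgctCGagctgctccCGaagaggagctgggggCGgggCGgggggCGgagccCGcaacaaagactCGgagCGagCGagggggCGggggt
OLFM2 downstream start (chr19:9913837-9913986, minus strand): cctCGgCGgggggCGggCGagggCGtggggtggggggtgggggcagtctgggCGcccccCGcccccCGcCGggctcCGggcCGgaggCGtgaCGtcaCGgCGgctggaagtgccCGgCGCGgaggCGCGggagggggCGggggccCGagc
MAPK8 upstream start (chr10:48306489-48306638, plus strand): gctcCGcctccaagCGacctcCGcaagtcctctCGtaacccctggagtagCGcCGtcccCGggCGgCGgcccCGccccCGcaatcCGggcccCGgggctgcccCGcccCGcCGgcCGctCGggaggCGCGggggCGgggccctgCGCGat
MAPK8 downstream start (chr10:48401462-48401611, plus strand): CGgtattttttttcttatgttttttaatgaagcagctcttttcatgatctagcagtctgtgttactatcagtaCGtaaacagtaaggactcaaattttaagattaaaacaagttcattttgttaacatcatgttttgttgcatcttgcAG
MYOF upstream start (chr10:93482335-93482484, minus strand): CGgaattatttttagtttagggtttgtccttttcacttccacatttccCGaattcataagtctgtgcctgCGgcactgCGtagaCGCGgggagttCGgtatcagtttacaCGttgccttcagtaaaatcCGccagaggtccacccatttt
MYOF downstream start (chr10:93379988-93380137, minus strand): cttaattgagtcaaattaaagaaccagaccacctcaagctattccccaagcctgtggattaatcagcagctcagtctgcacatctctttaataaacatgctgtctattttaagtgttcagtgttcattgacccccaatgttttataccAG
OLFM2 had 15 CG pairs before the upstream start and 22 before the downstream start. MAPK8 had 23 and 2, and MYOF had 9 and 0.

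Total counts per library ran from 129276054 to 161548901 over all transcripts. These totals are not numbers of reads, because an alignment was counted on each span it touched. With TMM scaling, all 9 naïve markers were higher in both naïve libraries and all 9 primed markers in both primed libraries. Among them were DPPA5 and DNMT3L for naïve cells and ZIC2 and THY1 for primed cells. The naïve marker KLF17 had 2200 and 2423 raw counts in naïve and 2083 and 2236 in primed, and its direction depended on the scaling. Of 4 trophoblast markers, 3 were higher in both naïve libraries. Their summed level was 1631 and 1954 CPM (TMM-scaled counts relative to library size) in naïve 1 and 2 against 4.11 and 3.20 in primed 1 and 2, almost all of it from CGA, which was 0 in primed 1. TFAP2A was 0 in primed 2 and KRT7 did not separate the states. None of these markers was a member, and the part of trophoblast-like cells in the results below was not tested. In bulk libraries, fewer cells of a type and less RNA per cell cannot be told apart.

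The stretches ran from 10001 to 301793 bases, with a median of 22480, and made up a median of 68.3% of the long span. They held a median of 35.8% of the exonic bases of the long transcript. In 413 members the stretch contained coding bases, in 80 it held only untranslated leader exons of a coding transcript, and in 20 the long transcript had no coding bases at all. The median upstream share over members was 29.8% and 30.3% in naïve 1 and 2 and 25.5% and 30.2% in primed 1 and 2. The spread over members was wide, with quartiles of 11.6% and 57.8% in naïve 1 and of 9.29% and 45.4% in primed 1. Primed 1 had the lower share of the primed pair in 399 of 513 members, whereas naïve 1 was the lower of the naïve pair in 263. The median absolute difference between replicates was 2.82 points in naïve cells and 3.38 points in primed cells.

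**Figure D1:**
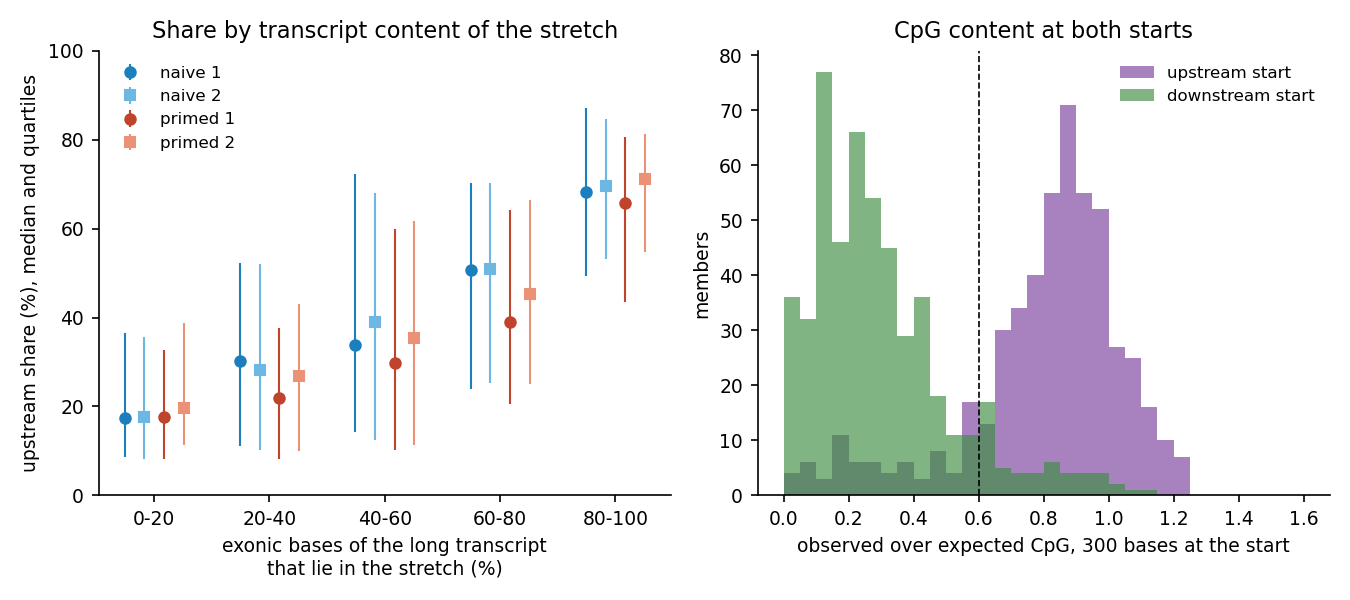
Left, upstream share per library (median and quartiles over members, in percent) by the share of the exonic bases of the long transcript that lie in the stretch. Right, number of members by observed over expected CpG in 300 bases at the upstream and the downstream start, with a dashed line at 0.6. The share climbed with the exonic content, and 81.3% of upstream starts but 8.58% of downstream starts were CpG-rich.

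The share went with what the stretch contained. In the 156 members whose stretch held under 20% of the exonic bases, the median share lay between 17.4% and 19.6% across the 4 libraries. In the 16 members with 80% or more, it lay between 65.7% and 71.2%. Spearman's correlation of the mean share with the percentage of exonic bases was 0.35, with the number of exons in the stretch 0.48 and with the length of the stretch 0.43, each over 513 members that share libraries and are not independent. Stretches that contained whole annotated transcripts of the same gene, 329 in all, had median shares of 41.1%, 40.2%, 30.1% and 37.1% in naïve 1, naïve 2, primed 1 and primed 2. The 184 without such a transcript had 15.4%, 14.8%, 14.2% and 18.1%. Counts were denser in the short span, with a median of 15.0 per kilobase against 2.99 in the stretch, and 443 members were denser in the short span. Alignments that touched both parts were counted for the short span alone, so the counting rule itself favours the short span in this comparison.

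A change of usage between states was called when edgeR's test of the stretch against the short span of the same gene gave an adjusted p under 0.05 and the share moved by at least 10 percentage points. By this rule 126 members were called, or 24.6%, and 23.7% of all 4930 pairs tested were. The share was higher in primed cells in 35 members (6.82%, against 9.7% of all pairs) and lower in 91 (17.7%, against 14.0%). Called members were thus about as common as called pairs in the whole series. Among 2516 other pairs with at least 50 counts in each library, 10.2% were higher in primed and 16.2% lower. Both primed shares lay outside both naïve shares in 68.0% of members against 65.2% of all pairs. They did so in all 126 called members, which the call itself favours, because it rests on the same shares. Without primed 1, which had the lower shares of the primed pair, 52 members were lower in primed and 37 higher, and without primed 2, 87 were lower and 16 higher. DESeq2 called 68 of the members, 18 higher and 50 lower in primed.

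**Figure D2:**
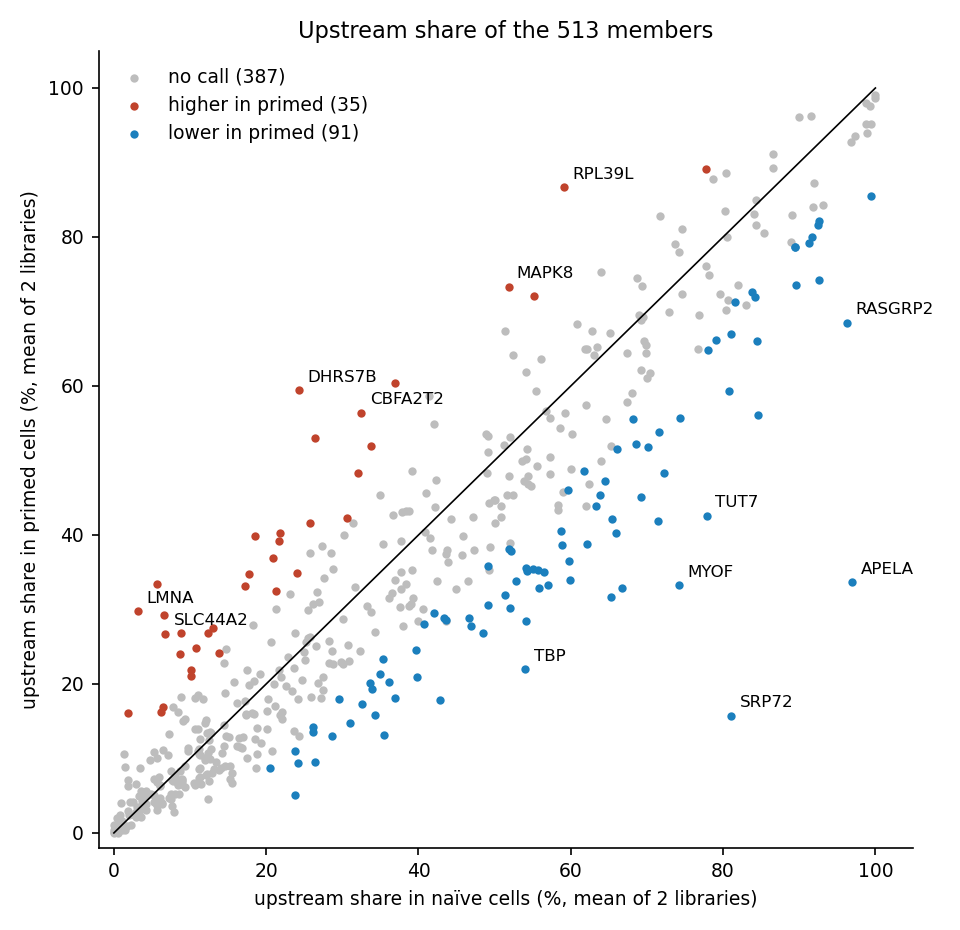
Upstream share of each of the 513 members in naïve cells (x axis, percent) and primed cells (y axis, percent), each the mean of 2 libraries, with the line of equality. Red points are the 35 members higher in primed, blue points the 91 lower in primed and grey points the 387 without a call.

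Calls were counted by the kind of stretch, where 9.7% of all pairs were called higher and 14.0% lower. Of the 80 members whose stretch held only untranslated leader exons, 12 were called higher in primed and 4 lower. Of the 413 with coding bases in the stretch, 23 were called higher and 85 lower. Of the 170 members with a retained-intron short span, 43 were among the 91 falls and 8 among the 35 rises. Of the 192 with a protein-coding short span, 20 were falls and 19 rises. The shares over all pairs were not split by the type of short span. The median share of the leader-only members was 13.8% and 14.6% in naïve cells and 14.0% and 16.5% in primed cells. These counts describe the members and were not tested against each other.

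Rises of the share went with different level changes of the stretch and the short span. In 25 of the 35 the stretch itself was called higher in primed by edgeR, in 2 it was called lower and in 8 it was not called. The short span was called lower in 17, higher in 3 and not called in 15. Over all members, 17.3% of stretches were called higher and 43.1% lower, and 24.4% of short spans higher and 35.5% lower. Level and share come from the same counts, so a called rise by itself favours a higher stretch or a lower short span. These are level calls with TMM factors, and level calls depended on the scaling, as given below. RPL39L, which encodes a paralog of the ribosomal protein RPL39, had a stretch of 41412 bases (chr3:187139497-187180908) with 2 exons and no coding bases. In its stretch, 990 (naïve 1), 997 (naïve 2), 4156 (primed 1) and 3675 (primed 2) counts were found. The short span held 653 and 726 counts in naïve and 569 and 626 in primed. The stretch was higher in both primed libraries and the groups did not overlap, whereas the raw counts of the short span were lower. The share rose from 59.1% ± 1.69 to 86.7% ± 1.78 (SD, n = 2 libraries per state; edgeR adjusted p = 6.83e-20). On the level scale with TMM factors the stretch rose by 1.67 ± 0.15 (log2, SE) and the short span fell by 0.51 on the log2 scale. With library size scaling the stretch rose by 2.31, a shift larger than the fall of the short span. The direction of the short span thus depended on the scaling.

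DHRS7B, an enzyme of the short-chain dehydrogenase family, had the largest rise. Its stretch (chr17:21126964-21171673) held 1 exon, and its short span was a retained-intron transcript. The stretch had 19 and 40 counts in naïve and 163 and 223 in primed, while the short span had 89 and 89 against 139 and 121. The transcript DHRS7B-207, inside the stretch at chr17:21126964-21128873, had 66 and 62 counts in naïve and 58 and 51 in primed. The higher stretch count in primed was thus not seen over that part. Alignments that also touched the short span were counted there too. The share rose by 35.1 points, from 24.3% ± 9.49 to 59.4% ± 7.67 (SD, n = 2, edgeR adjusted p = 1.11e-07). Of its parts only the stretch passed the level test, at 5.36-fold higher CPM. OLFM2, which encodes a secreted glycoprotein of the olfactomedin family, had 25 and 15 stretch counts in naïve and 320 and 335 in primed (stretch at chr19:9913837-9936515). Its short span rose as well, from 73 and 69 to 486 and 531 counts. Both parts were thus far higher in primed, by 13.0-fold and 5.76-fold in CPM, and the share rose from 21.7% ± 5.41 to 39.2% ± 0.720 (SD, n = 2, adjusted p = 0.00543). ARHGEF10L showed the same pattern with 13 and 15 stretch counts in naïve and 99 and 143 in primed, and a short span that went from 49 and 51 to 164 and 190. The call of OLFM2 was lost without naïve 2 (edgeR adjusted p = 0.146), and that of ARHGEF10L with DESeq2 (0.101) and without naïve 1, naïve 2 or primed 2 (0.1, 0.0687 and 0.0818). With the shortest eligible short span in place of the longest, the change of share was -6.46 points in ARHGEF10L and -3.88 points in OLFM2, so the direction in these genes depended on the downstream start that was taken.

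In LMNA, SLC44A2 and CBFA2T2 the share rose mainly as the short span fell. LMNA encodes lamins A and C of the nuclear lamina. Its long span held 1162 and 1209 counts in naïve and 263 and 293 in primed. The stretch (chr1:156082578-156114710) had 34 and 41 counts in naïve and 73 and 93 in primed, a rise of 0.84 ± 0.27 (log2, SE, adjusted p = 0.007) that was not called with DESeq2 or without primed 2 and was -1.14 with the shortest eligible short span. The short span had 1128 and 1168 against 190 and 200, a fall of 2.87 on the log2 scale. The share thus went from 3.16% ± 0.329 to 29.7% ± 2.82 (SD, n = 2, adjusted p = 1.76e-26). SLC44A2, a choline transporter-like protein, had 111 and 128 stretch counts in naïve and 108 and 160 in primed. Its short span fell from 1589 and 1723 to 354 and 372 counts, and its share rose from 6.72% ± 0.273 to 26.7% ± 4.74 (SD, n = 2). The level of its stretch was -0.14 (log2, adjusted p = 0.574) with TMM and 0.49 with library size scaling, neither of them called, and -1.17 (adjusted p = 4.62e-07) with the shortest eligible short span. CBFA2T2, a transcriptional corepressor of the MTG family, had lower counts in both parts in primed cells. Its stretch (chr20:33490096-33562364) held 439 and 466 counts in naïve and 308 and 334 in primed, and its short span 815 and 1087 against 199 and 307. The share rose by 23.9 points (adjusted p = 7.02e-07). The level of its stretch was -0.80 (log2, edgeR adjusted p = 7.35e-05) with TMM and -0.16 (edgeR adjusted p = 0.375) with library size scaling. The fall of this stretch thus depended on the scaling.

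**Figure D3:**
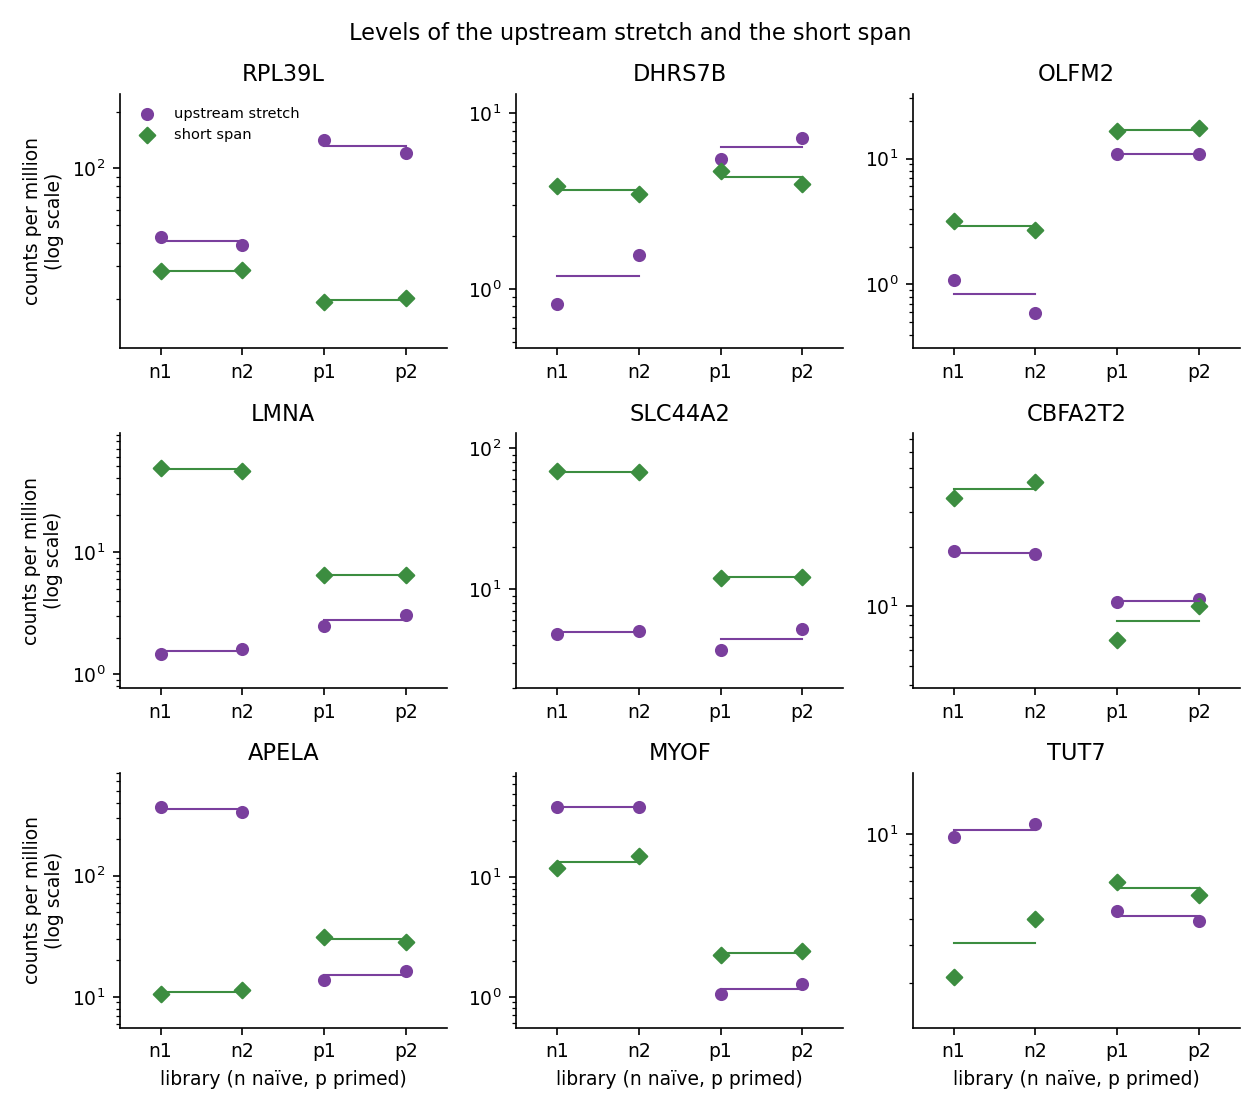
TMM-scaled CPM (log axis) of the upstream stretch (circles) and of the short span (diamonds) in naïve 1, naïve 2, primed 1 and primed 2, for 9 named genes. Lines are the means of 2 libraries. In RPL39L, DHRS7B and OLFM2 the stretch was higher in primed, in LMNA, SLC44A2 and CBFA2T2 the short span was lower, and in APELA, MYOF and TUT7 the stretch was lower.

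Where several downstream starts with the same 3′ end were annotated, the percentage of long-span counts that missed each span could be followed along the gene. In LMNA, the counts missing the span that began 32133 bases downstream were 2.93% and 3.39% in naïve and 27.8% and 31.7% in primed. At 53155 bases they were 18.0% and 15.5% in naïve and 36.9% and 43.0% in primed, so most of the gap between states was present at the first of these starts. SLC44A2 was alike, with 6.53% and 6.92% against 23.4% and 30.1% at 23015 bases, and 23.3% and 24.4% against 42.6% and 50.9% at 35234 bases. In CBFA2T2 the values were 35.0% and 30.0% against 60.7% and 52.1% at 72269 bases. In OLFM2 the states were apart at 22679 bases, with 25.5% and 17.9% against 39.7% and 38.7%, and overlapped at 78347 bases, with 70.4% and 69.0% against 69.2% and 62.5%.

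**Figure D4:**
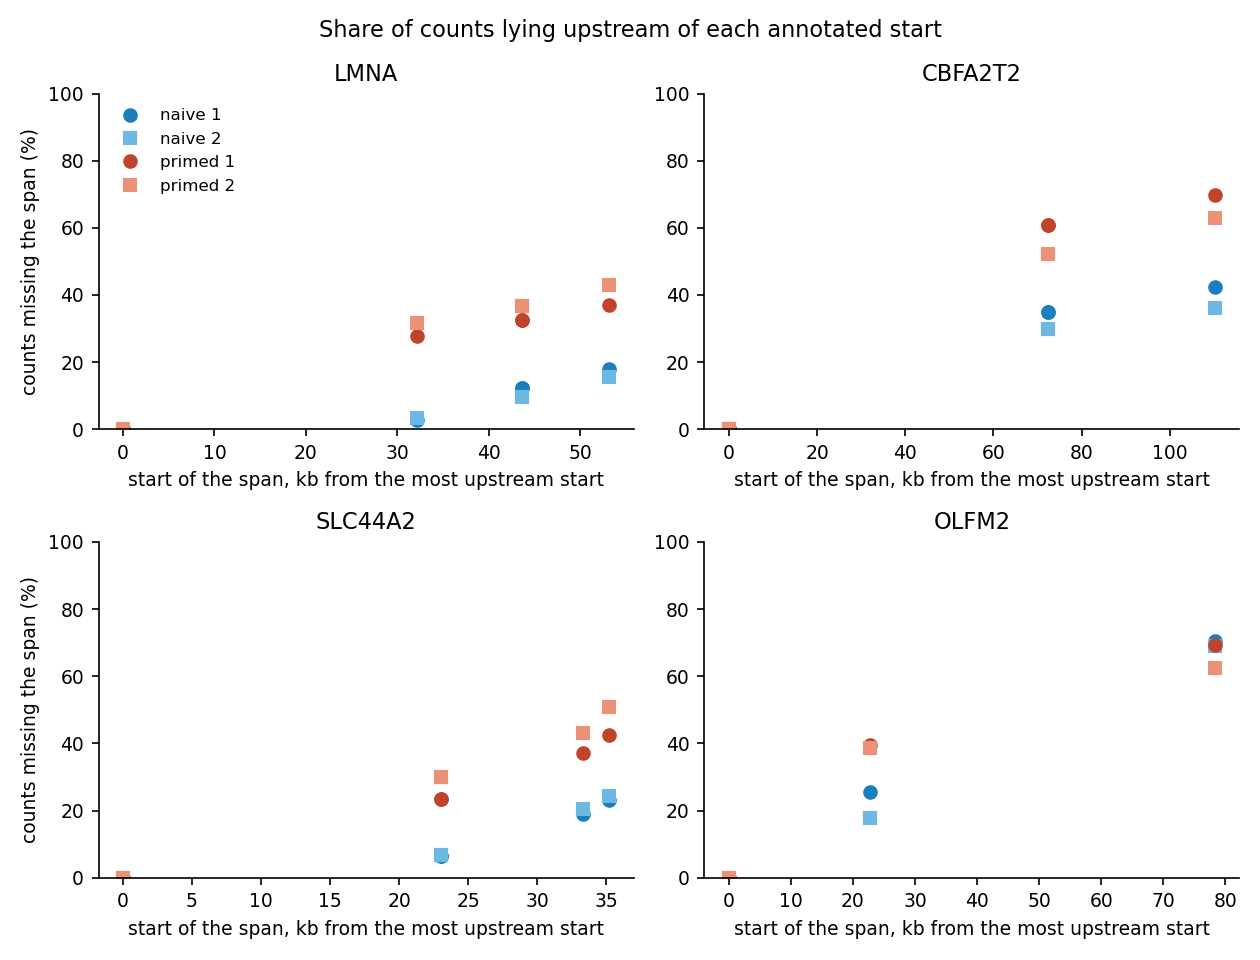
Percentage of long-span counts that missed each annotated span (y axis) by the distance of the start of that span from the most upstream start (x axis, kilobases), for LMNA, CBFA2T2, SLC44A2 and OLFM2 in each library. Beyond the starts that lie at the 5′ end itself, primed libraries sat above naïve libraries at every start shown except the last one of OLFM2, where they overlapped.

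The other named rises were in MAPK8, IDE and YJU2B. MAPK8 encodes the stress-activated kinase JNK1. Its stretch (chr10:48306639-48401611) had 69 and 100 counts in naïve and 197 and 299 in primed, with short-span counts of 71 and 84 against 101 and 72. The share rose from 51.8% ± 3.58 to 73.3% ± 10.2 (SD, n = 2, adjusted p = 0.00038), and without primed 2 the change was 14.3 points at an adjusted p of 0.119, and the call was also lost with DESeq2 (adjusted p = 0.0656). IDE, the insulin-degrading enzyme, had 102 and 91 stretch counts in naïve and 160 and 262 in primed. Its shares were 39.1% and 28.4% in naïve and 43.4% and 60.5% in primed. The call of IDE was lost with DESeq2 and without naïve 2 or primed 2. YJU2B, a relative of the splicing factor YJU2, had 41 and 37 stretch counts against 102 and 122, while its short span stayed between 65 and 73 counts in all libraries. Outside the named rule, ATF3 and SLC3A2 stood out after their values were seen, with shares of 5.64% ± 0.223 and 33.4% ± 12.4 in ATF3 and of 1.89% ± 0.00155 and 16.1% ± 3.31 in SLC3A2 (naïve and primed, SD, n = 2). ATF3 encodes a stress-induced transcription factor and SLC3A2 the heavy chain of amino acid transporters. In both the short span fell, by 2.72 and 2.39 on the log2 scale.

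**Figure D5:**
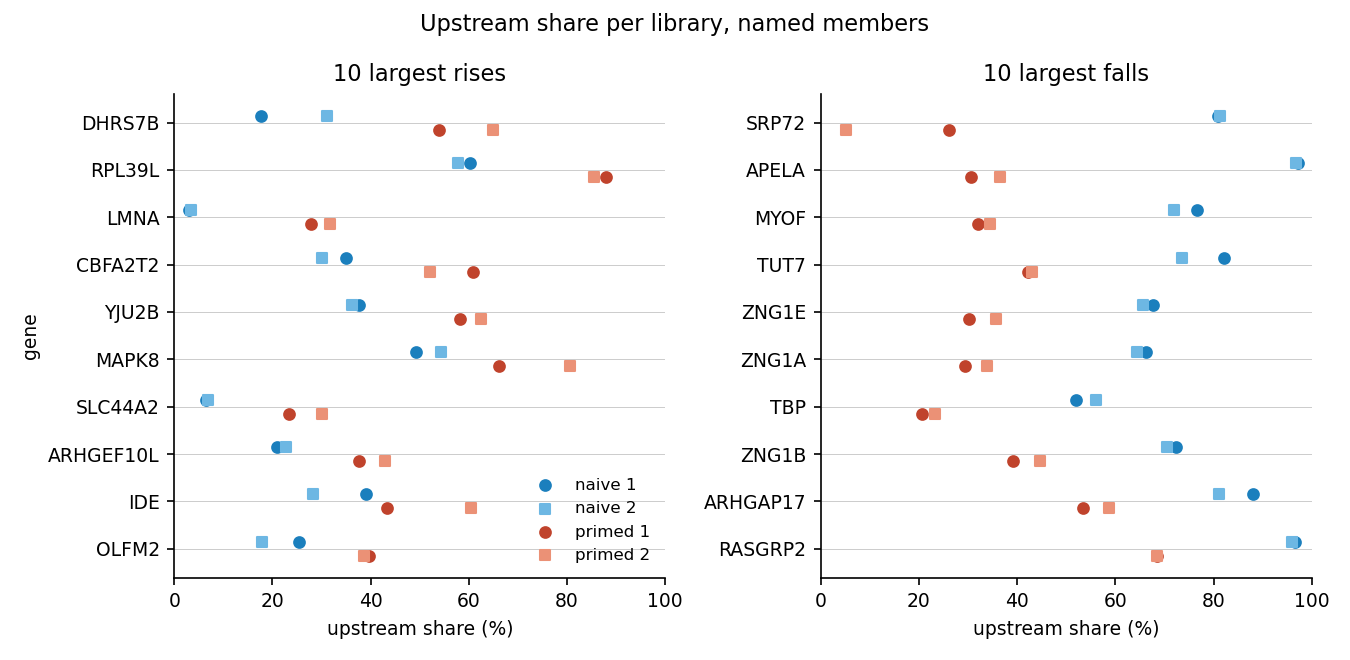
Upstream share (percent) in each library for the 10 members with the largest rise and the 10 with the largest fall. They were chosen among called members with a mean stretch count of at least 50 and shares that did not overlap between states. SRP72 had 26.2% in primed 1 and 5.25% in primed 2.

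Among the 91 falls, the stretch was called lower in 65, higher in 7 and not called in 19, and the short span was called higher in 43, lower in 12 and not called in 36. Over all members, 43.1% of stretches were called lower and 17.3% higher, and 24.4% of short spans higher and 35.5% lower. A called fall by itself favours a lower stretch or a higher short span, because both come from the same counts. These level calls too used TMM factors and depended on the scaling. APELA, a peptide hormone that signals through the apelin receptor and is made by embryonic stem cells, was lower in its stretch and higher in its short span. Its stretch (chr4:164877242-164895521) held 8511 and 8576 counts in naïve and 408 and 504 in primed. Its short span held 244 and 292 in naïve and 923 and 873 in primed. The share fell from 97.0% ± 0.358 to 33.6% ± 4.21 (SD, n = 2, adjusted p = 9.39e-100). The stretch fell by 4.54 and the short span rose by 1.44 on the log2 scale. Neither start of APELA was CpG-rich.

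MYOF, a membrane protein of the ferlin family, had 899 and 984 stretch counts in naïve and 31 and 39 in primed over 102347 bases (chr10:93379988-93482334). Its short span fell too, from 274 and 385 to 66 and 74 counts. Both parts were lower in primed and the share fell from 74.3% ± 3.37 to 33.2% ± 1.81 (SD, n = 2, adjusted p = 1.45e-12). TUT7, which adds uridines to RNA 3′ ends, had 224 and 285 stretch counts in naïve and 128 and 119 in primed (chr9:86319645-86354454). Its short span rose from 49 and 102 to 175 and 158, and its share fell by 35.2 points. TBP, the TATA-binding protein, had 108 and 124 against 51 and 50 in the stretch (chr6:170554333-170569611) and 100 and 97 against 196 and 165 in the short span. In TBP the raw long-span counts of 208 and 221 against 247 and 215 overlapped between states, and the share fell from 54.0% ± 2.96 to 21.9% ± 1.84 (SD, n = 2, adjusted p = 6.63e-08). ARHGAP17 and RASGRP2, an exchange factor for Rap, had short spans annotated as retained introns. RASGRP2 went from 434 and 380 stretch counts to 189 and 181, and from 15 and 16 short-span counts to 87 and 83.

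SRP72, a subunit of the signal recognition particle, had the largest fall and the least even replicates. Its short span, a retained-intron transcript of the 3′ part of the gene, held 265 and 318 counts in naïve, 2231 in primed 1 and 13368 in primed 2. The stretch held 1119 and 1382 against 793 and 741. The share was 80.8% and 81.3% in naïve, 26.2% in primed 1 and 5.25% in primed 2 (edgeR adjusted p = 0.0253). The retained-intron transcript SRP72-209, which lies inside the stretch, had 910, 1148, 2746 and 13760 counts in the same order. In primed 1 and 2 these counts far exceeded the stretch values of 793 and 741. Most of those alignments thus touched the short span as well and were left out of the difference. The low primed shares therefore do not show that alignments over the whole stretch were lost. The call was lost without naïve 1 or naïve 2 (edgeR adjusted p = 0.285 and 0.293), with the replicate block (0.0965) and with no count filter (0.0524).

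ZNG1A, ZNG1B and ZNG1E, copies of a zinc-transfer GTPase gene, moved together. Their stretches held 1446 and 1452, 1582 and 1592, and 1545 and 1547 counts in naïve, and 592 and 690, 797 and 919, and 612 and 737 in primed. The shares fell by 33.7, 29.5 and 33.8 points. These genes are near-identical copies and an alignment was counted at every place it aligned, so their values cannot be assigned to 1 copy and are not independent. The same holds for RGPD5 and RGPD6 and for NPIPA7 among the falls.

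Members in gene families fixed by symbol were few in each. Of 20 members in membrane trafficking, 6 were lower in primed and none higher, led by MYOF and by KIF20B and DYNC2I1, which encode motor proteins or their partners, at -21.8 and -19.5 points. Of 16 chromatin modifiers, 1 was higher and 4 were lower, among them the histone demethylases KDM6A (48.5% ± 0.366 to 26.8% ± 0.687), KDM3A and KDM3B (SD, n = 2 for KDM6A). Of 10 zinc-finger regulators, 3 were lower, ZNF266, ZNF160 and ZNF528, by 19.6, 19.1 and 18.7 points. Of 17 kinases and phosphatases, MAPK8 and STK40 were higher, and 3 were lower, led by the receptor-like PTK7 at -19.0 points. Of 14 members of the ubiquitin system, 3 were lower, FBXO3, KCTD3 and USP33, and in KCTD3 the primed shares of 55.0% and 78.9% lay far apart. Of 19 transporters and pumps, 2 were higher, SLC44A2 and SLC3A2, and 3 were lower, among them ABCA7 and SLC20A1. Of 5 adhesion and matrix genes, COL6A1 was lower, at -16.3 points. None of 11 RNA-binding proteins and none of 3 other DNA-binding factors was called. Of the signalling lists, 1 of 4 members in the FGF and ERK pathway was called, the receptor FGFR2, at 39.6% ± 3.23 in naïve and 24.5% ± 2.51 in primed (SD, n = 2), while its stretch and short span were both higher in primed. The Wnt co-receptor LRP5 and the BMP receptor ACVR1 were members without a call. Background shares of 9.7% higher and 14.0% lower in all pairs hold for these counts too. DNMT3B, the de novo DNA methyltransferase, had 111 and 96 stretch counts in naïve and 330 and 458 in primed, and its share of 9.07% ± 1.71 and 15.0% ± 2.03 moved by less than 10 points.

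On the level scale, 89 member stretches were higher in primed by edgeR (17.3%, against 34.8% of all pairs) and 221 lower (43.1%, against 26.2%). The median log2 fold change over members was -0.43, and -0.14 over the 2516 other pairs with 50 counts in each library, of which 26.9% were higher and 34.7% lower. Lower levels were thus more common than higher ones in these other pairs too. The short spans of the members were higher in 125 and lower in 182, with a median of -0.11. This direction depended on the scaling. With library size in place of TMM factors, 173 stretches were higher and 102 lower, the median over members was 0.20, and the median over all rows moved from 0.11 to 0.75. DESeq2 gave 63 higher, 185 lower and a median of -0.49. The usage calls compare parts of a gene within a library, and 122 of the 126 were shared with library size scaling.

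The stretches with the most counts per kilobase were those of APELA, at 246, NPM1, at 225, SNRPD1, at 212, CNIH4, at 112, and DDX21, at 98.2. NPM1 encodes the nucleolar chaperone nucleophosmin. Its stretch held 3181 and 2512 counts in naïve and 3517 and 2584 in primed, which overlap, and its share of 12.7% ± 2.14 and 11.3% ± 1.56 (SD, n = 2, adjusted p = 0.46) showed no call. SNRPD1, a core protein of spliceosomal particles, had shares of 96.8% ± 0.0333 and 92.7% ± 1.40, and CNIH4, a cargo receptor of the early secretory pathway, 98.7% ± 0.186 and 95.2% ± 0.00313, both with an adjusted p under the threshold but a change under 10 points. In DDX21, a nucleolar RNA helicase, the stretch fell by 1.04 on the log2 scale without a change of share that was called (adjusted p = 0.209).

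The longest stretches lay in TNS3 (301793 bases), NRCAM (299799) and BCKDHB (236924). TNS3 encodes tensin 3, a focal adhesion protein, and its stretch held 827 and 818 counts in naïve and 239 and 340 in primed, with shares of 86.6% ± 3.83 and 91.2% ± 1.38 (SD, n = 2). The transcript TNS3-202 inside this stretch went from 585 and 516 counts to 34 and 27. NRCAM, a neuronal adhesion molecule, had 89 and 89 stretch counts in naïve and 102 and 150 in primed, with 0 and 1 counts on its short span in naïve and 28 and 12 in primed, and its share fell from 99.4% ± 0.786 to 85.5% ± 9.99 (SD, n = 2, edgeR adjusted p = 7.28e-06). Inside its stretch, NRCAM-208 had 2 and 6 counts in naïve and 47 and 40 in primed. BCKDHB, a subunit of the branched-chain ketoacid dehydrogenase, rose in both parts, from 89 and 127 to 325 and 475 stretch counts and from 28 and 32 to 212 and 213 short-span counts.

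At the count minimum, the members nearest to 50 from above were FHIP1B, TFAP4 and NPAS1, with shares of 34.9% and 45.4%, 43.6% and 37.4%, and 46.6% and 33.8% in naïve and primed. The pairs nearest from below were MAP7D3, SIDT2 and SYK, each with 49 counts on the long span in its lowest library. MAP7D3 had 46 and 71 stretch counts in naïve and 225 and 254 in primed.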

How the data were processed

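Nanopore cDNA of 4 H1 libraries was studied. Per the file headers and the submitters' processing notes, the authors aligned reads to GRCh38 with minimap2 and deposited raw counts per transcript span made with featureCounts 2.0.0 on Ensembl 105. Multi-mapping and multi-overlapping alignments were counted in full and strand was not used. Transcripts were matched to GENCODE 44 by identifier (242542 of 244825), and the 2283 without a match, with 0.84% to 1.15% of the counts, were left out.

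The difference of long-span and short-span counts was computed for every gene with a pair of spans, and genes with at least 10 counts on the long span in at least 2 libraries were fitted together in edgeR 4.0.16 (R 4.3.3), 32542 rows in all. TMM factors and library sizes came from 1 count per gene, that of the isoform with the largest mean. Usage was tested with diffSpliceDGE's gene-wise test. Levels were tested with the quasi-likelihood test. Tests were two-sided. Benjamini-Hochberg adjustment ran over all rows for levels. For usage it ran over the stretches and short spans of paired genes, with the p-value of a gene entered for both parts. The fits were tested on simulated data. Tables were handled with pandas 2.3.3 and numpy 2.4.6, and scipy 1.17.1 gave the rank correlations.

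The members and gene lists were chosen with earlier results of these data known. The genes named are RPL39L, the 10 largest rises and 10 largest falls among called members with non-overlapping shares and a mean stretch count of at least 50, the 5 densest and 3 longest stretches, 3 pairs on each side of the count minimum, and at most 3 called members per family. DNMT3B, LRP5, ACVR1, ATF3, SLC3A2, RGPD5, RGPD6 and NPIPA7 were chosen after their values were seen, and 11 genes whose symbols matched a family by letters only were removed. Alternatives were library size scaling, DESeq2 1.42.0, the replicate block, other count filters, span rules, member minimums and share thresholds, and each library left out. The part-level test and the second background were added after the data were seen. Replicates differed by more than sampling noise in both states, with chi-square per degree of freedom of 13.2 and 7.82. Some genes and sequences are not reported here.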

Additional observations from a re-analysis of the deposited data

How the results depend on the processing

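With a library left out, the lone library of its state was assumed to vary like the other state. Usage calls among members then ran from 89 to 104, those higher in primed from 16 to 37 and those lower from 52 to 87, and 50 of the 126 calls were shared by all 4 such fits, 14 higher and 36 lower. The median level ran from -0.59 without primed 2 to -0.28 without primed 1. The labels number the replicates alike in both states. Deviations of same-numbered libraries had a correlation of 0.09 over 19140 rows. With 2 libraries per state, this cannot tell whether same-numbered libraries share more than a number. The replicate block gave 124 calls, all of them among the 126, 35 higher and 89 lower. Library size scaling turned the median level to 0.20, with 173 higher and 102 lower. DESeq2 gave 68 usage calls, 18 higher and 50 lower, all among the 126, and the part-level test 67, 24 higher and 43 lower. A threshold of 20 points left 39 calls, 11 higher and 28 lower. Smaller member sets gave fewer calls. With exactly the same 3′ end, 165 members gave 45 usage calls (14 higher, 31 lower) and 97 level calls (29 higher, 68 lower). With no other gene within 5000 bases, 154 members gave 37 usage calls (8 higher, 29 lower) and 96 level calls (28 higher, 68 lower). With starts 20000 bases apart, 338 members gave 147 lower levels. The median level was -0.30 with a minimum of 20 counts, -0.52 with 100 and -0.14 in the other pairs. The median share, 30.0% in naïve and 27.9% in primed, was 20.4% and 18.4% with starts 5000 bases apart, 43.0% and 37.1% at 20000 bases, and 40.2% and 36.1% with the shortest short span. Of 288 values of named shares under an alternative, 272 kept direction and call, 14 lost the call, and ARHGEF10L (-6.46) and OLFM2 (-3.88) reversed with the shortest short span. Of 288 named levels, 279 kept direction and call and 4 lost the call, among them CBFA2T2 with library size (-0.16). SLC44A2 reversed with library size (0.49) and ran from -0.42 without primed 2 to 0.09 without primed 1. It was called lower with the shortest short span (-1.17). LMNA reversed with the shortest short span (-1.14) and with exactly the same 3′ end (-0.74). The cause of these changes was not tested. Counts near 50 limit single members.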
